A study of Caenorhabditis elegans with 4 samples.

Results

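The mitochondrial complex I genes ND1, ND2, ND3, ND4, ND4L, ND5 and ND6 of Caenorhabditis elegans were examined for peaks of CEY-2 chromatin immunoprecipitation followed by sequencing (ChIP-seq). The members were the 7 NADH dehydrogenase subunit genes of the mitochondrial chromosome (chrM, build ce11), taken by gene identifier. They are 7 of the 12 mitochondrial protein-coding genes and 7 of 46926 annotated genes. The study held 4 libraries of 3 biological replicates in 1 group. Replicate 2 had 2 technical libraries, which the authors combined into 1 alignment. All libraries came from whole hermaphrodite L4 larvae, of unknown age, of strain OP358, which carries unc-119(tm4063) on chromosome III and the transgene wgIs358. This transgene adds CEY-2 with GFP and FLAG at its C terminus, and the promoter that drives it is not given in the labels. The text of the labels names an antibody against GFP for the precipitation, whereas their antibody field reads cey-2. No untagged strain was in the group, the control named in the labels was not analysed here, and depth is unknown because the lists hold no read counts.

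Complex I is the first enzyme of the respiratory chain. It passes electrons from NADH to ubiquinone and pumps protons across the inner mitochondrial membrane. Its membrane arm contains the subunits encoded by mitochondrial DNA, with ND2, ND4 and ND5 as the antiporter-like proton-pumping subunits, while the remaining subunits are encoded in the nucleus. CEY-2 is a Y-box protein, a family with a cold shock domain that binds RNA and single-stranded DNA.

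Of the 7 genes, 6 held the summit of a peak in the authors' thresholded list, which keeps peaks that recur in rank between replicates (irreproducible discovery rate, IDR). Among all 19985 protein-coding genes, 0.891% held such a summit, and all 5 other mitochondrial coding genes did. The 6 genes held 12 of the 25 mitochondrial summits, in a list of 611. ND1 held 3 summits, ND2, ND4, ND5 and ND6 held 2 each, and ND3 held 1. ND4L, the smallest of the 7 genes, held none in any of the 5 lists. The highest summit of the set lay in ND5 and was the second highest of the whole list, after a summit in CYTB, the cytochrome b gene of complex III. It ranked second in each of the 3 replicates as well. The pooled list, made from the 3 replicate alignments, and the replicate lists were the input to IDR. The pooled list and that of replicate 2 are labelled as holding background as well as peaks. A low-ranked entry of these lists, called a peak or summit here, may therefore be background.

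The sequence at the best-ranked summit of each gene shows where the replicates placed it. Capitals run from the lowest to the highest of the thresholded summit and the nearest summit of each replicate, and lower case adds 25 bp on each side. The sequences are from the RefSeq assembly WBcel235 (ce11), on the + strand, which is the coding strand of all 36 annotated mitochondrial genes. They lie at chrM:12391-12481 for ND5, chrM:7047-7172 for ND4, chrM:1760-1884 for ND1, chrM:11388-11496 for ND3, chrM:3530-3740 for ND2 and chrM:132-323 for ND6. All of them lie inside their gene apart from the first 3 bases of the ND1 sequence.
ND5: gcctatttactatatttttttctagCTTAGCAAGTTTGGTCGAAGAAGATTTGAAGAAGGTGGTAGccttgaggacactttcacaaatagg
ND4: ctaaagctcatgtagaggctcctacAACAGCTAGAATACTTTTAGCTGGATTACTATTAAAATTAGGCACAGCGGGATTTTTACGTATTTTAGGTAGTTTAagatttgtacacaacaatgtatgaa
ND1: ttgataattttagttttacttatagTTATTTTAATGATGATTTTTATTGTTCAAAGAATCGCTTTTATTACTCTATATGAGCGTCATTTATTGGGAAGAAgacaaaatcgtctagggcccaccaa
ND3: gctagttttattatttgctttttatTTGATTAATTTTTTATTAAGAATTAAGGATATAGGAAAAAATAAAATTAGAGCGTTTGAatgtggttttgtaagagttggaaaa
ND2: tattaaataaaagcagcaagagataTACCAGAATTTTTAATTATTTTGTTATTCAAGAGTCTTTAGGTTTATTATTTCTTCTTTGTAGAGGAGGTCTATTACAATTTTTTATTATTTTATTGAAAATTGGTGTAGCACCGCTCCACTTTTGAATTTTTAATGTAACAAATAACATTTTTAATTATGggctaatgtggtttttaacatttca
ND6: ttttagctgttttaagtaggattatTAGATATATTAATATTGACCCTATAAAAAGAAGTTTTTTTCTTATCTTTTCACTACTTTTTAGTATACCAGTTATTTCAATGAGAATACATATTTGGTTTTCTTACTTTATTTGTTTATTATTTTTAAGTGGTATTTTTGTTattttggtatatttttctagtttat
The capitals span 41 bp in ND5, 59 bp in ND3, 75 bp in ND1 and 76 bp in ND4. They are longer in ND6, with 142 bp, and in ND2, with 161 bp. The ND2 stretch reaches to the only ND2 summit of replicate 3, which lies nearer to the gene's other thresholded summit. The capitals of ND5 held 41.5% G and C, with 34.1% of all bases G and 7.32% C. In the other 5 genes the capitals held between 18.6% G and C, in ND3, and 31.6%, in ND4.

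**Figure D1:**
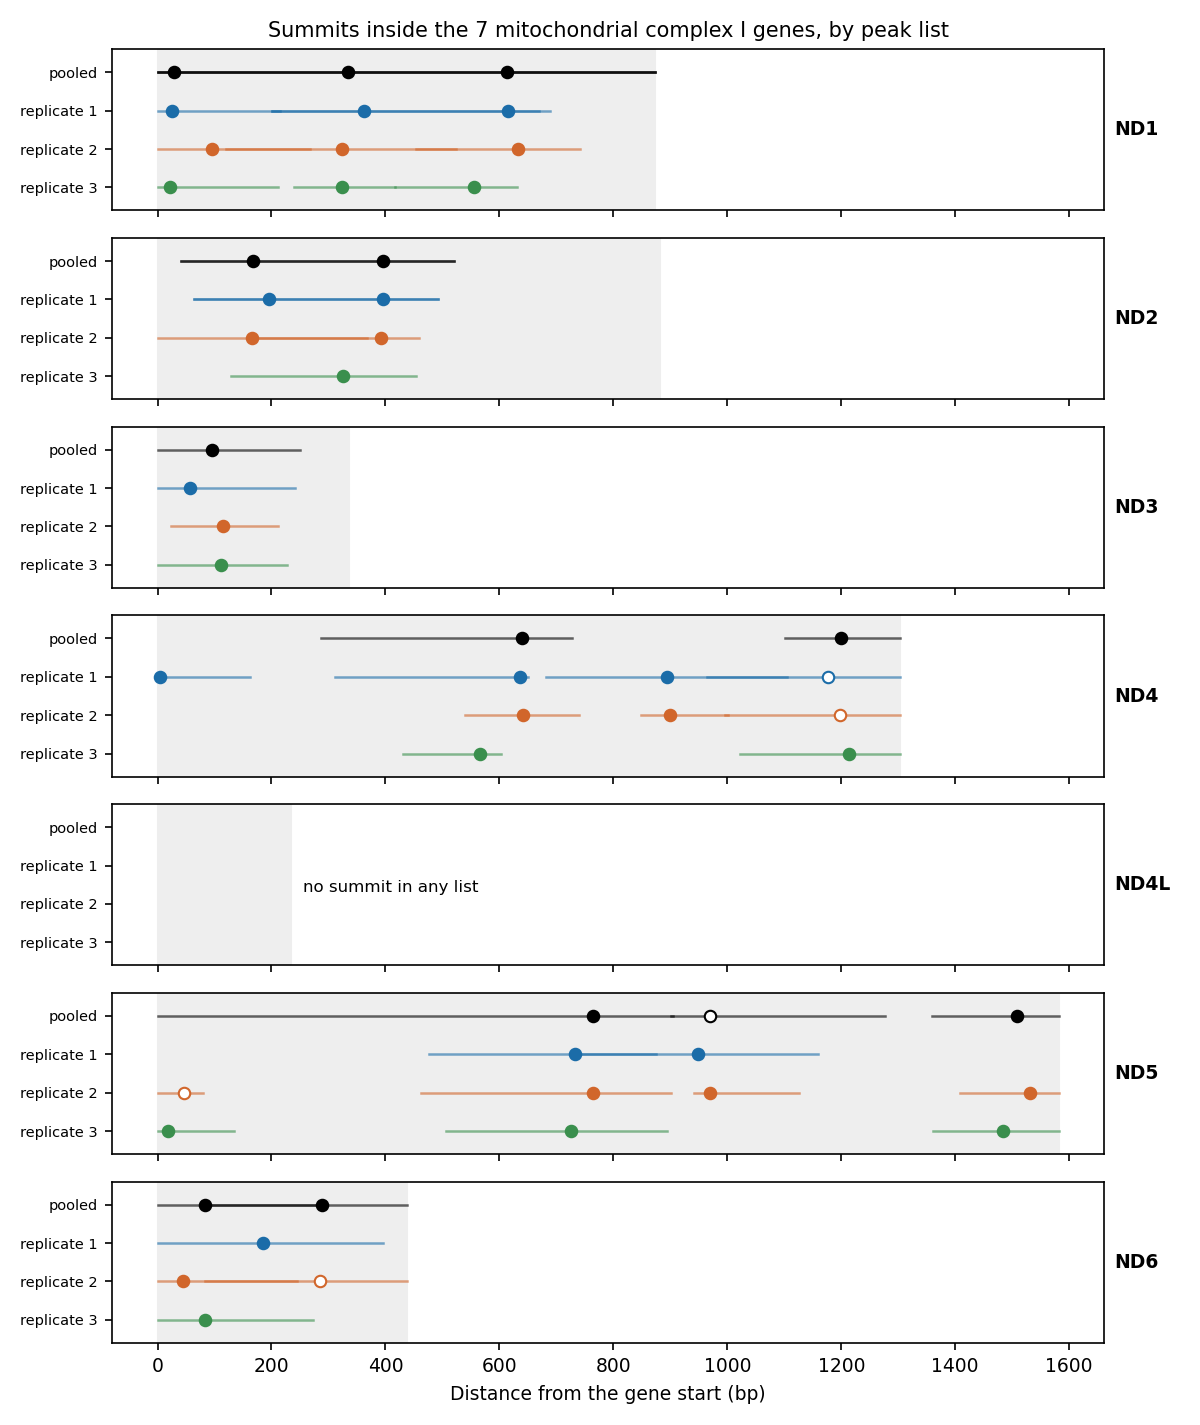
Position of each summit as the distance from the gene start in bp, for the pooled list and the 3 replicate lists, with 1 panel per gene. Grey marks the gene, and filled points mark the summits ranked within the top 611 of their list. Lines mark the part within the gene of each peak whose summit lies in it. Peaks that reach in from a neighbouring gene are not drawn. ND1 holds 3 summits in each list, the ND5 summit at 765 bp recurs in each replicate, and ND4L holds no summit.

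ND5, ND4 and ND2 encode the antiporter-like subunits. ND5 spans chrM:11691-13272 and is the longest of the 7 genes, with 1582 bp. Its main summit lay at position 12456, 765 bp from the gene start and 48.4% of the way along the gene, with a signal of 1530. The signal is the peak caller's own value, can be compared only within 1 list, and serves here to rank and compare peaks of the same list. Replicate 1 placed the summit at 12424 with a signal of 544, replicate 2 at 12456 with 777 and replicate 3 at 12416 with 385. The positions lay within 40 bp of each other, and the signal was 93.8%, 78.5% and 55.1% of the highest in replicates 1, 2 and 3. A summit near the 3′ end of ND5, at position 13200, had a signal of 78.8 and rank 57. Replicate 2 had a summit 23 bp away at rank 272 and replicate 3 one 25 bp away at rank 14. Replicate 1 had none within 200 bp, its nearest being 560 bp away. A further ND5 summit at 12661, with rank 8332 and a signal of 12.8, was the only member summit of the pooled list that did not pass the threshold. Replicate 1 had a summit near it at 12640 with rank 28 and replicate 2 one at 12661 with rank 54, but replicate 3 had none within 200 bp. Near the start of ND5, replicate 2 had a summit at 11738 with rank 844 and replicate 3 one at 11710 with rank 42. Neither the thresholded nor the pooled list held a separate summit there, but their interval of the main summit, from 11599 to 12596, covered both positions. The central summit was therefore found in every list, and the summits around it differed between replicates.

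ND4 spans chrM:6506-7808. Its main summit, at position 7146, had a signal of 751 and rank 3, and it also lay near the middle of the gene, at 49.2% of its length. Replicate 1 placed it at 7142 with rank 7, replicate 2 at 7147 with rank 3 and replicate 3 at 7072 with rank 5. These positions lay within 75 bp of each other. The other ND4 summit, at 7705, lay at 92.1% of the gene and had a signal of 204 and rank 17. Its position recurred within 37 bp in the 3 replicates, but its rank was 650 in replicate 1, 24391 in replicate 2 and 10 in replicate 3. The high rank thus appeared in replicate 3 alone, and the interval reached 176 bp into COX1, a subunit gene of complex IV. Replicates 1 and 2 shared a summit at 7400 and 7406, with ranks 21 and 171, that replicate 3 and the thresholded list did not hold within 200 bp. Replicate 1 also had a summit 5 bp after the start of ND4, with rank 20.

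ND2 spans chrM:3389-4269 and held both of its summits in 1 interval of 481 bp, from 3430 to 3910. The summit at 3556 had a signal of 426 and rank 11, and the one at 3785 had a signal of 262 and rank 13. Replicate 1 had summits at 3585 and 3785, with ranks 10 and 14, and replicate 2 at 3555 and 3782, with ranks 12 and 20. Replicate 3 had a single summit at 3715, with rank 7, which served as the nearest to both. The 359 bp from 3911 to the end of ND2, 40.8% of the gene, lay under no peak of any list.

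ND1, which lies at the junction of the membrane and matrix arms of the enzyme, spans chrM:1763-2635. Its 3 summits shared 1 interval of 1127 bp that covered the whole gene and 202 bp of ATP6, a subunit gene of ATP synthase. The summit at 1792, only 29 bp from the gene start, had a signal of 666 and rank 5, and the replicates ranked it 3, 5 and 12. The summit at 2098 had a signal of 233 and rank 15, and the replicates ranked it 145, 19 and 9. The summit at 2377 had a signal of 214 and rank 16, and the replicates ranked it 29, 11 and 16. ND1 was the only member with 3 summits in every list, and the spread of each over the replicates was at most 78 bp. Which of them was highest differed, since replicates 1 and 2 ranked the one at the gene start first and replicate 3 the one near 2098.

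ND3, ND6 and ND4L are small membrane subunits. ND3 spans chrM:11356-11691 and held 1 summit in each list. It lay at 11452, 96 bp from the gene start, with a signal of 481 and rank 10. Replicate 1 placed it at 11413 with rank 8, replicate 2 at 11471 with rank 14 and replicate 3 at 11468 with rank 3. The positions lay within 58 bp of each other, and the interval reached 142 bp into the neighbouring rRNA gene. ND3 and ND5 adjoin, and the ND5 interval covered 93 bp of ND3.

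ND6 spans chrM:113-549, close to the start of the linear reference sequence of this circular molecule. Its summit at 196 had a signal of 291 and rank 12, and its interval began at the first base of the sequence. The replicates placed it at 298, 157 and 196, with ranks 12, 13 and 15. The other ND6 summit, at 402, had a signal of 52.2 and rank 201, the lowest of the 12. Replicate 2 alone held a distinct summit close to it, at 398, with rank 10489. Replicate 1 had only the summit at 298, between both, and the nearest of replicate 3 was 206 bp away. Both ND6 peaks were 390 bp wide with the summit at the centre, the most common width in the thresholded list, held by 583 of 611 peaks. The other 10 member summits had other widths.

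ND4L spans chrM:549-783. The ND6 peak at 402 covered its first 48 bp, 20.4% of the gene. From 600 to 776, 75.3% of the gene, no list held a peak.

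**Figure D2:**
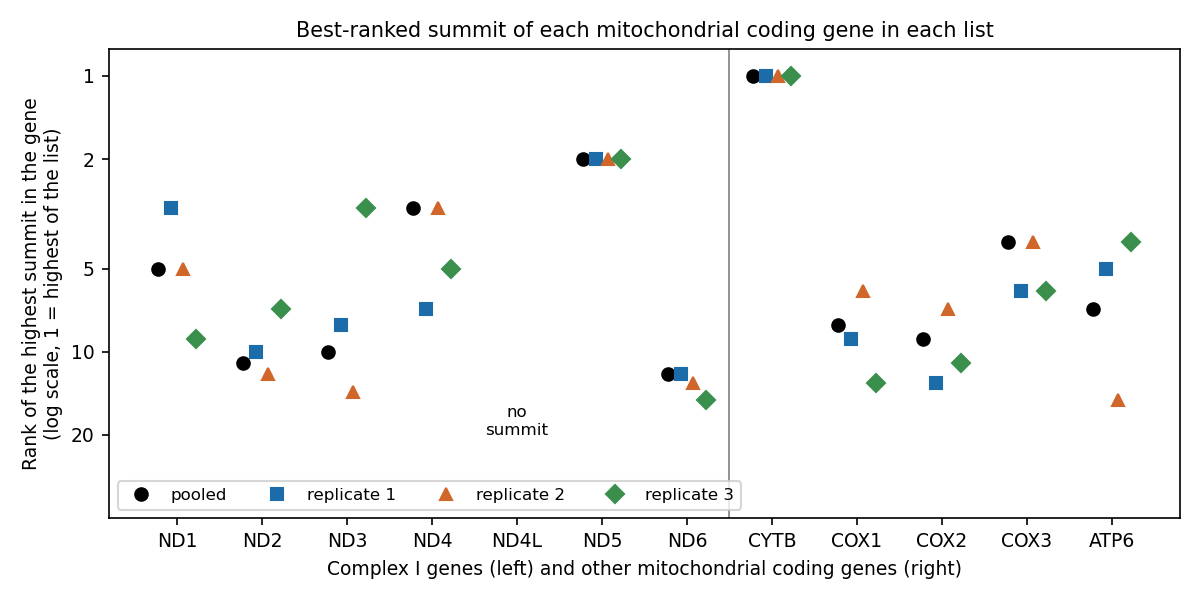
Rank of the best-placed summit of each of the 12 mitochondrial coding genes (log scale, with rank 1, the highest, at the top) in the pooled list and the 3 replicate lists. ND5 is at rank 2 in all of them and CYTB at rank 1, ND6 lies between 12 and 15, and ND4L has no summit.

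By best rank, the order of the genes in the thresholded list was ND5, ND4, ND1, ND3, ND2 and ND6. The first and last place recurred in all 3 replicates except that ND3 was last in replicate 2, with rank 14 against 13 for ND6. The places between changed: ND4 ranked 7, 3 and 5, ND1 3, 5 and 9, ND3 8, 14 and 3, and ND2 10, 12 and 7 in replicates 1, 2 and 3. ND4 ranked above ND2 in each replicate. Every other pair of these 4 genes changed order between replicates, so their order did not hold beyond the spread.

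Of the 12 summits, 10 had a summit within 200 bp in all 3 replicate lists, beside 89.0% of all thresholded peaks. The exceptions were the summits at 13200 in ND5 and at 402 in ND6. Replicates 1, 2 and 3 held 2.03, 1.96 and 1.67 summits per kb of the mitochondrial molecule, so many positions lie within 200 bp of one. The count of 10 therefore cannot by itself show recurrence of position. It is also not comparable with the 89.0%, since 586 of the 611 peaks are nuclear. Within the top 611 of every replicate, 9 of the 12 had such a summit, beside 20.3% of all thresholded peaks. The same held for 6 of 10 summits in the other 5 mitochondrial coding genes and for 17 of all 25 mitochondrial peaks, so it was shared by the molecule. In replicates 1, 2 and 3, 12 of 13, 12 of 15 and 11 of 11 complex I summits ranked within the top 611. The count of 9 therefore largely restates their high signal and is not separate evidence of recurrence. Among summits that recurred within 200 bp in all 3 replicates, the median spread was 72 bp in complex I genes, 72 bp in the other mitochondrial coding genes and 85 bp in nuclear peaks. Over all thresholded summits, recurring or not, these medians were 74.5, 139.5 and 94 bp.

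**Figure D3:**
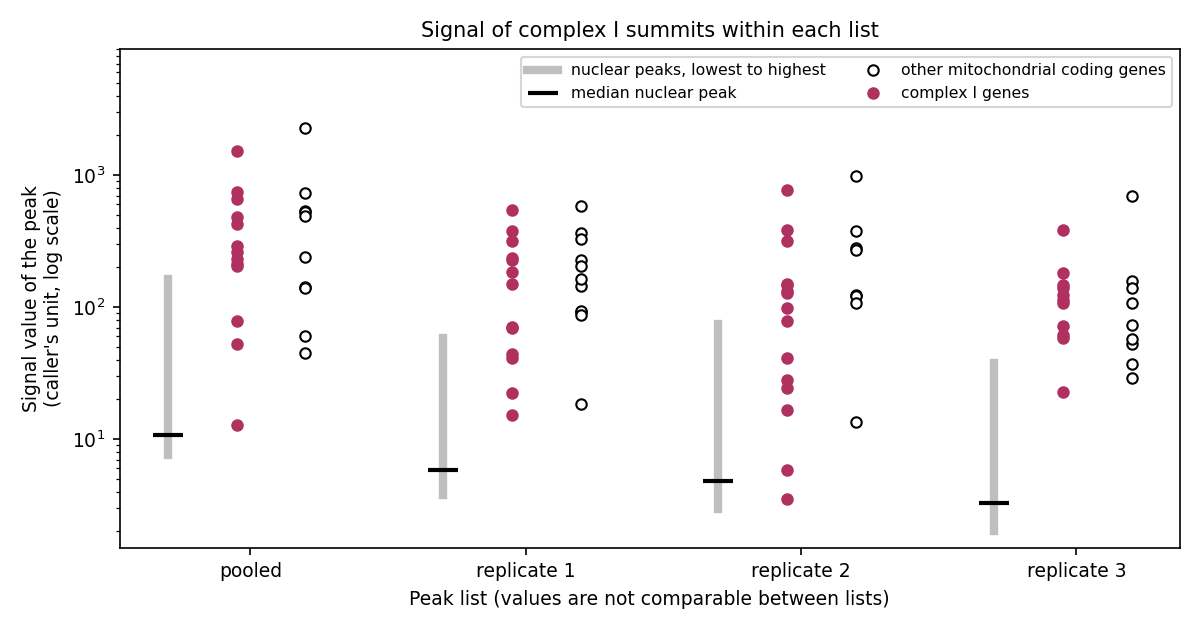
Signal of each summit (log scale, in the caller's unit) in complex I genes and in the other mitochondrial coding genes, beside the range and median of nuclear peaks, within the pooled list and the 3 replicate lists. In the pooled list 10 of 13 complex I summits lie above the highest nuclear peak, at 163, and both mitochondrial sets span similar ranges.

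In the thresholded list the signal of the 12 complex I summits ranged from 52.2 to 1530, with a median of 276. The 10 summits in the other mitochondrial coding genes ranged from 45.1 to 2297, with a median of 366, and the ranges overlapped. Within the replicate lists the complex I median was also the lower in replicates 1 and 2, with 149.5 against 164.0 and 99.3 against 196.8, but the higher in replicate 3, with 113.0 against 73.3. The 586 nuclear peaks ranged from 35.9 to 163, with a median of 44.7. Thus 10 of the 12 complex I summits stood above every nuclear peak, and those at 13200 in ND5 and at 402 in ND6 lay within the nuclear range. Mitochondrial DNA is present in many copies per cell, and the part of copy number or of the control in these signals was not tested. Of 5 distinct nuclear stretches at 3 loci that aligned to at least 50 bp of a complex I gene, the most similar had 70.6% identity, and none lay under a peak in any list.

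**Figure D4:**
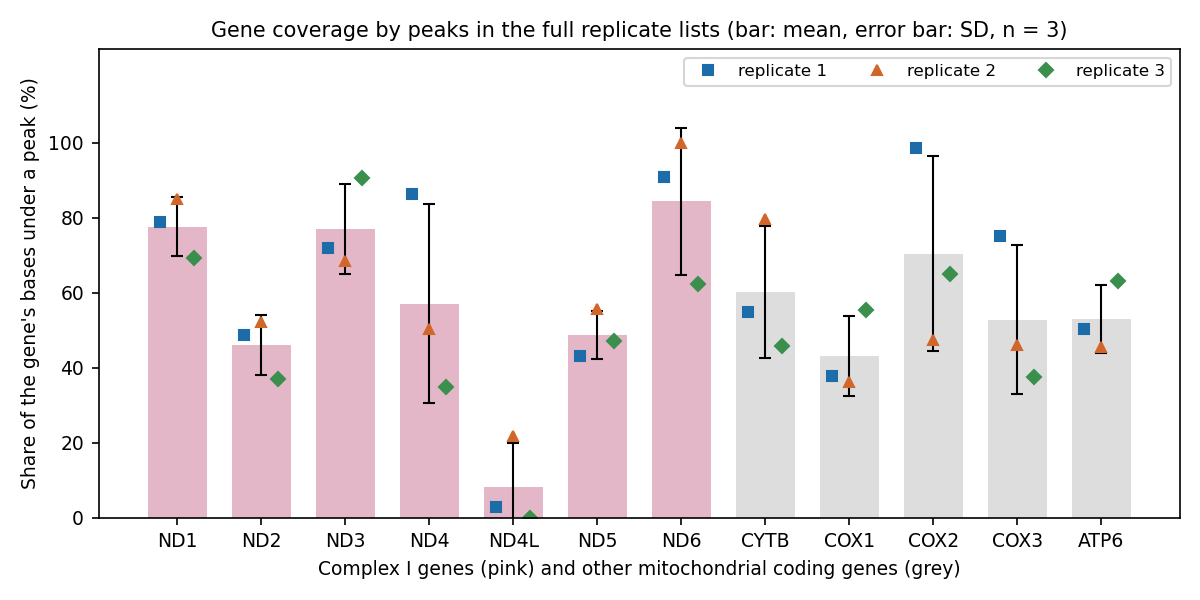
Share of each gene's bases under a peak in the full lists of the 3 replicates, in percent (points: replicates, bars: mean, error bars: SD, n = 3). ND6, ND1 and ND3 have the highest means of the complex I genes, at 84.4%, 77.7% and 77.1%, and ND4L the lowest, at 8.23%. Peak width enters these shares, and its most common value is 424, 404 and 380 bp in replicates 1, 2 and 3.

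Thresholded peaks covered 69.9% of the 5645 bp of the complex I genes. The same peaks covered 63.9% of the bases of the other mitochondrial coding genes and 62.4% of the whole molecule. They covered all of ND6, ND1 and ND3, 71.4% of ND5, 54.6% of ND2, 49.4% of ND4 and 20.4% of ND4L. In the full replicate lists, mean coverage was 84.4% ± 19.6 for ND6 and 77.7% ± 7.97 for ND1 (SD, n = 3). Peak width enters these shares, and its most common value was 424, 404 and 380 bp in replicates 1, 2 and 3. The single ND6 peaks of replicates 1 and 3 had that width. In replicate 2, ND6 coverage included an entry of that width with rank 10489, which may be background. The part of peak width in the order of the genes was not tested. ND3 was covered to 72.0%, 68.5% and 90.8% in replicates 1, 2 and 3. Coverage was lower for ND5, at 48.7% ± 6.35, and for ND2, at 46.0% ± 7.98 (SD, n = 3). ND4L lay below every other member in every replicate, with 2.98%, 21.7% and 0%. The 21.7% lay under the ND6 entry of rank 10489. ND4 varied most, with 86.3%, 50.3% and 34.8% in replicates 1, 2 and 3. Its replicate 1 peaks at 7400 and 7682 had the most common width of that list. The number of summits in the 7 genes was 13, 15 and 11 in replicates 1, 2 and 3, or 13.0 ± 2.0 (SD, n = 3).

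Coverage was set against that of CYTB, COX1, COX2, COX3 and ATP6, the other mitochondrial coding genes. Complex I genes were covered to 63.3%, 61.2% and 47.9% in replicates 1, 2 and 3, and the other genes to 58.3%, 50.7% and 52.7%. The difference was 3.57 ± 7.73 percentage points (SD, n = 3) and was positive in 2 of 3 replicates, with p = 0.50 in a two-sided exact sign-flip permutation test. Summits per kb were 2.30, 2.66 and 1.95 in complex I genes and 2.29, 1.67 and 1.88 in the others, a difference of 0.356 ± 0.548 that was positive in 3 of 3 replicates, with p = 0.25 in the exact permutation test. With 3 replicates this test cannot give a p below 0.25, and adjusted over the 2 comparisons both p were 0.50. Neither difference was larger than the spread between replicates. Complex I genes make up 40.9% of the molecule and held 48.0% of the thresholded mitochondrial summits. The other mitochondrial coding genes likewise held a larger share of the summits than of the molecule. In the thresholded list, summits per kb were 2.13 in complex I genes, 2.09 in the other coding genes and 0.894 outside coding genes. The higher share was therefore common to coding genes and not particular to complex I.

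Base composition differed between the summits. In windows of 201 bp centred on the 12 summits, the share of G and C ranged from 13.9% to 32.8%, and 5 of 12 lay above the median window of the mitochondrial genome. The highest 2 windows were those of the highest 2 summits, with 32.8% at 12456 in ND5, where 96.6% of all mitochondrial windows held less, and 32.3% at 7146 in ND4. The lowest was that of the weak ND5 summit at 13200, with 13.9%. The match of the top 2 held only among the complex I summits. At 4719 in CYTB, the highest summit of the whole list, the window held 25.9%, and 58.2% of all mitochondrial windows held less. Spearman's rho between the share of G and C and the signal was 0.60 over the 12 summits and 0.50 over the 22 summits of all coding genes, as a description of sites that share libraries and 1 molecule. The share of G and C can also affect sequencing, and its part in the signal was not tested.

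Short words were searched on both strands in the same windows. The Y-box word ATTGG, whose reverse complement is CCAAT, was present at 3 of 12 summits, namely at 1792 and 2098 in ND1 and at 12456 in ND5, against 37.5% of all mitochondrial windows. CATC was present at 5 of 12 (52.1% of all windows) and TGATAA at 3 of 12 (20.8%). GAGAGA (4.33%) and CACGTG (1.44%) were at none.

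The nuclear genes listed for complex I had no thresholded peak at their starts. The list held 42 genes, gathered by name or RefSeq description and not limited to subunits of the enzyme. Of these, 0 had a thresholded summit within 500 bp of the start, beside 0.996% of all protein-coding genes. At that share, fewer than 1 gene of a list of this size would be counted. In the full pooled list, which holds 25484 entries with background included, 21 of the 42 had a summit there. This stood beside 30.4% of all protein-coding genes, a difference that was not tested. The best-placed there was ndua-8, which encodes an accessory subunit. It and nduf-11 were named after their values were seen. The ndua-8 summit had rank 1350 in the pooled list, and rank 12486, 18955 and 136 in replicates 1, 2 and 3, so its high place was in replicate 3 alone. The nduf-11 summit had rank 1783 in the pooled list, and rank 1769, 1719 and 2654 in replicates 1, 2 and 3, the best of the list in replicates 1 and 2. All these ranks were below those of the best summits of ND1, ND2, ND3, ND4, ND5 and ND6, which were between 2 and 15 in every replicate.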

How the data were processed

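Peak lists from CEY-2-GFP ChIP-seq of 1 group with 3 biological replicates were used: 5 lists in ce11, and 1 list in ce10 for a count alone. The reads and the control were not analysed here, and no aligner or peak caller is named in the labels. Per peak, every deposited list holds the signal of the authors' caller and the distance of the summit from the peak start in bp. Signal was compared only within a list, by rank, by share of the highest signal, by median and range, and against base composition. Exactly 30000 entries were deposited for replicate 1, and as many for replicate 2. The replicate and pooled lists were the input to IDR, and those of replicate 2 and the pool are labelled as peaks and background. Their low-ranked entries were kept and may be background.

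A peak was placed in a gene where its summit lay inside the gene (Ensembl release 115). Symbols came from RefSeq genes covering at least 80% of the same bases. Coordinates are 1-based in ce11. A summit recurred where a replicate held one within 200 bp, and 1 replicate summit could serve several. Nuclear matches were searched with blastn 2.17.0, and other steps used Python 3.11.15 with pandas 2.3.3 and numpy 2.4.6. Gene assignment was tested on simulated data. Labels do not say whether replicates came from separate cultures, so their spread may be technical.

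The members, gene lists and words were chosen with earlier results of these data known. Named genes were the 7 members, the other 5 mitochondrial coding genes and any nuclear complex I gene with a thresholded summit. No test was planned, since there is 1 group. The sign-flip test over replicates, the pooled-list count of nuclear genes and the relation of signal to base composition were added after seeing the data. Nuclear complex I genes were 46 matched names of 48, giving 31 genes, with the others from RefSeq descriptions.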

Additional observations from a re-analysis of the deposited data

How the results depend on the processing

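Most counts for the complex I genes kept within 1.5 times their value under the alternatives tried. Genes with a summit numbered 5 to 7 (6 in the report), the extremes being for intervals that cover at least 50% of a gene and for intervals that overlap it at all, where ND4L counts. The share of mitochondrial summits was 48.0%, and 52.2% among the top 611 of replicate 2. Bases covered were 69.9%, against 76.5% in the full pooled list and 59.8%, 49.4% and 47.9% in the top 611 of replicates 1, 2 and 3; the cause was not tested. Summits recurring in all replicates fell from 10 to 4 when the distance was 50 bp. They were 10 to 11 when a replicate was left out, but this step can only keep or raise the count. With each replicate summit used once, an alternative chosen after seeing the data, they were 9. RefSeq boundaries, chosen likewise, left the genes with a summit at 6, the summits at 12 and the share at 48.0%, and were not run for the other results. Nuclear complex I genes with a summit numbered 0, and 1 in the top 611 of replicate 3. The ce10 list also held 25 mitochondrial peaks. Between replicates, the difference in coverage from the other mitochondrial coding genes changed sign, as the report gives. There is 1 group, so no pairing between groups applies. Depth is unknown, so no counting error can be given for a peak, and neither a missing summit nor a gap between peaks shows that CEY-2 was absent there.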
